A study of Mus musculus with 2 samples.

Results

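The genes described here are 9 cytokine and enzyme genes that are linked to pain, namely Tnf, Il1a, Il1b, Il1rn, Il6, Il10, Il18, Ptgs2 and Tslp. They were chosen by name from the 16819 gene symbols of a single-cell matrix of 2668 immune cells of mouse dorsal root ganglia (DRG), and all 9 had at least 1 unique molecular identifier (UMI, a counted RNA molecule). DRG hold the cell bodies of the sensory neurons. The mice were naive, wild-type (WT) BALB/cAnNRj animals, 3 male and 3 female, for which the study's methods state a lower bound of age but no exact ages. Animals were perfused with cold saline, ganglia of cervical, thoracic and lumbar levels were pooled, and the tissue was digested warm with collagenase I, dispase II and DNAse I before CD45+ living cells were sorted. Cells of the 6 mice carried 6 hashtag antibodies and shared 1 lane of the 10x Genomics 3′ assay. The lane was thus common to all groups. Hashtags were put on individual samples before the sorted cells were pooled, so preparation could differ between mice. No group was spared the digestion. The 2668 cells carried the male hashtags, each taken as 1 mouse, and a further 1073 cells of the larger matrix carried the female hashtags.

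IL-1α (Il1a) and IL-1β (Il1b) act on the same receptor, which sensory neurons carry, and the receptor antagonist encoded by Il1rn occupies that receptor without signalling. TNF sensitises nociceptors through its own receptors, and Ptgs2 encodes the inducible cyclooxygenase, the enzyme that non-steroidal painkillers inhibit on the way to prostaglandins. IL-10 (Il10) restrains macrophages that have been activated, IL-18 (Il18) is matured by caspase-1 as IL-1β is, IL-6 (Il6) signals through gp130, and TSLP (Tslp) is an epithelial-type alarmin that can act on itch neurons. Several of these genes belong to the early response of macrophages to handling and to microbial stimuli, and digestion of tissue at body temperature is known to induce immediate early genes such as Fos and Jun.

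Cells were grouped by fixed rules on other genes. Macrophages had at least 0.5% of their UMIs in C1qa, C1qb and C1qc (1442 cells, 54.0% of all), neutrophils at least 5% in S100a8 and S100a9 (272 cells), B cells at least 4 UMIs of Cd79a and Cd79b (161 cells) and T cells at least 2 UMIs of Cd3d, Cd3e and Cd3g (76 cells). Each class had between 12 and 749 cells per male mouse. In each of these 4 classes, 5 of 5 marker genes that the rules did not use were highest in their own class. Among cells outside these rules, 136 were monocyte-like, 74 dendritic-cell-like and 28 NK-like by further fixed markers. Cells that met more than 1 rule (327) were set aside, and 286 of them met the neutrophil and the T rule. These 286 cells held 1376 Cd3d UMIs but 4 of Cd3e, 8 of Cd3g, 0 of Trac and 2 of Trbc2. Some neutrophil folds are therefore given also with the T rule applied last, which made 555 neutrophils. Neutrophil levels and shares in the class comparison are for the 272 cells alone. The 286 cells left out were lower than these in Il1b, Ptgs2 and Il1rn, with values given below. The male cells held 23403638 UMIs, with a median of 8283.5 per cell (549 to 37058). Macrophages had a median of 8581.5, neutrophils 3635.5, B cells 3410 and T cells 4757.5. All 2668 male barcodes were also among the 4395 of the larger matrix, which holds the same cells.

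The promoters of Il1a, Il1b, Tnf and Ptgs2 are shown as the 100 bases before the annotated start (RefSeq, GRCm38.p6, gene strand, 5′ to 3′). Il1a, Il1b and Ptgs2 moved together along an immediate early axis of macrophages, described below. Il1b, Ptgs2 and Tnf moved along a granule axis of neutrophils, also described below, as did Il1rn, whose windows are not shown. Capitals mark the letters of a motif that a search of both strands found, and the motifs were chosen after the sequences had been seen. Il1a lies at chr2:129299610-129309972 on the minus strand (GRCm38, GENCODE M21), and its window is chr2:129309973-129310072. Il1b lies close by at chr2:129364570-129371139 on the minus strand, and its window is chr2:129371140-129371239. Tnf lies at chr17:35199381-35202007 on the minus strand, with the window chr17:35202008-35202107, and Ptgs2 at chr1:150100031-150108227 on the plus strand, with the window chr1:150099931-150100030.
Il1a: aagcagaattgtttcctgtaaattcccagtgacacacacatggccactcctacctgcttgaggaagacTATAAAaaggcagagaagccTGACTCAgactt
Il1b: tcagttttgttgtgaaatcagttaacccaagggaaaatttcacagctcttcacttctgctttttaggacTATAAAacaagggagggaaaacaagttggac
Tnf: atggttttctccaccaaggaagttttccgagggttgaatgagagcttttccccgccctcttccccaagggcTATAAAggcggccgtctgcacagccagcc
Ptgs2: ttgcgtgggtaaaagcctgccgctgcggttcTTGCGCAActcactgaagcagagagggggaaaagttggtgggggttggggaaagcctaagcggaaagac

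TATAAA begins 32 bases before the start of Il1a, 31 before that of Il1b and 29 before that of Tnf, and 5.54% of 32544 promoter windows of this length hold these letters. Il1a also holds TGACTCA, a form of the AP-1 motif TGANTCA, 12 bases before its start (2.74% of windows). Ptgs2 holds TTGCGCAA, a form of the C/EBP-type motif TTNCGCAA, 69 bases before its start (0.277% of windows). The cyclic-AMP motif TGACGT (4.11% of windows) and the NF-kB consensus (1.51%) had no match in these 4 windows. Of the matched windows not shown, those of Il1rn and Il18 held none of these motifs, and that of Il6 held an NF-kB match, GGGATTTTCC. A match of letters is a description of the sequence only. Of the other genes, Il10 lies at chr1:131019845-131024974, Il1rn at chr2:24336853-24351494, Il6 at chr5:30013114-30019981 and Il18 at chr9:50554827-50581840, all on the plus strand. RefSeq entries were matched for 7 of the 9 genes.

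Across the 4 tested classes, Il1b was high in both myeloid classes, Il1a and Il10 were macrophage genes, Il1rn was a neutrophil gene, and Tnf was shared by macrophages, neutrophils and T cells. Ptgs2 was present in macrophages, neutrophils and monocyte-like cells and was nearly absent from lymphocytes. Of all UMIs of each gene in the male cells, macrophages held 92.2% for Il1a, 91.5% for Il10, 83.8% for Tslp, 81.3% for Il1b, 78.5% for Il18, 73.0% for Ptgs2 and 70.9% for Tnf. Macrophages held 32.7% of Il1rn UMIs and 30.3% of Il6 UMIs. Levels below are CPM, which express a gene's UMIs relative to all UMIs counted in that class of 1 mouse, in the order of male mouse 1, 2 and 3. Class differences are log2 folds after TMM scaling, from edgeR's quasi-likelihood test on UMIs summed per mouse and class with Benjamini-Hochberg adjustment over all genes tested, and are called at an adjusted p below 0.05. With that rule 60.1% of the 5503 genes tested differed between macrophages and neutrophils, so a call by itself is the common case, and the sizes carry the comparison. Beside this background, 4 of the 6 genes tested were called between macrophages and neutrophils. Il1a and Il10 passed the filter on low counts only through the macrophage sums, and Il1rn only through the neutrophil sums, where each was high. The count of members called is thus partly set by the filter.

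Il1b, the gene of the secreted IL-1β, reached 2964, 3344 and 2969 CPM in macrophages and 1419.9, 1521 and 1822 CPM in neutrophils. It stood at 59.1, 61.8 and 50.5 CPM in B cells and at 42.4, 81.4 and 167 CPM in T cells. The myeloid classes did not overlap with the lymphocytes, nor with each other. The fold of macrophages over neutrophils was 0.60 on the log2 scale (SE 0.22, adjusted p = 0.0245, edgeR's quasi-likelihood test), and that over B cells was 6.38, where 58.1% of genes were called. Over T cells it was 5.32 (44.9% of genes called), and neutrophils exceeded B cells by 5.77 (55.2% called) and T cells by 4.72 (46.5% called). Between B and T cells the value was -1.05 (adjusted p = 0.0704, 19.9% of genes called), and it was called in 5 of 15 alternatives. Among these were DESeq2 (-1.04, adjusted p = 0.0467) and the fit without mouse 1 (-1.58, adjusted p = 0.0132), while without mouse 3 it turned to 0.12. The others were the 10% neutrophil rule (-2.66), the 1% macrophage rule (-2.39) and cells of more than 1 rule given to B and then T cells first (-3.09). These settings can put cells of the main neutrophil or macrophage rule into the T class, so they do not compare the same T cells. The call between macrophages and neutrophils ended without mouse 1 (0.51) or mouse 2 (0.45), and the fold was 1.51 when the T rule was applied last. Il1b was also found in monocyte-like cells (711, 1109.8 and 419 CPM) and dendritic-cell-like cells (1743, 1579 and 2784 CPM), which were not part of the test.

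Il1b was detected in 84.0% of macrophages per mouse on average and in 22.5% of B cells, a class that should lack it. After every cell was thinned to 2000 UMIs, which left out 30 macrophages, 31 neutrophils and 10 B cells, the shares were 68.9% ± 5.90 of macrophages, 58.2% ± 7.42 of neutrophils and 9.03% ± 1.30 of B cells (SD, n = 3 mice). What gave the share in B cells, free RNA included, was not tested. At 13.6% ± 4.88 the T cells stood close to that share.

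Il1a was close to a macrophage-only gene among the 4 classes. It measured 157, 56.5 and 68.0 CPM in macrophages, 0, 3.55 and 3.28 CPM in neutrophils and 0, 0 and 9.54 CPM in T cells, and no UMI was counted in 161 B cells. Mouse 1 had by far the highest macrophage level, and macrophages of every mouse stood above every value of the other tested classes. The log2 fold over neutrophils was 4.76 (SE 0.74, adjusted p = 2.5e-05) and over T cells 4.70 (edgeR's quasi-likelihood test). Against B cells the level was at least 20.1-fold higher, with 3 UMIs over the group as the floor. This bound and those below are ratios of CPM pooled over the mice, without TMM factors, unlike the log2 folds.

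Il1rn, whose product blocks the IL-1 receptor, had the reverse order. Neutrophils held 127, 135 and 108 CPM and macrophages 20, 10.3 and 16.1 CPM. No UMI was found in B, T or NK-like cells, and monocyte-like cells had 2.61, 8.57 and 13.5 CPM. Every neutrophil value lay above every macrophage value, with a log2 fold of -3.38 for macrophages minus neutrophils (SE 0.23, adjusted p = 4.58e-09). Neutrophils were at least 31.1-fold above B cells and at least 17.1-fold above T cells. In thinned cells Il1rn was detected in 30.3% ± 2.68 of neutrophils, 1.52% of macrophages and 0% of B cells (43.2% ± 4.68, 6.42% and 0% unthinned).

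Il18 was found in macrophages, dendritic-cell-like and monocyte-like cells, and among these it was lowest in monocyte-like cells of mouse 3. Macrophages had 32.2, 28.7 and 33.7 CPM, dendritic-cell-like cells 35.1, 42.3 and 34.2 CPM and monocyte-like cells 26.1, 30.0 and 13.5 CPM. Neutrophils had 2.39, 0 and 6.57 CPM and B cells 3.94, 6.18 and 0 CPM, both below every macrophage value, while T cells had none. Il18, Il6 and Tslp did not pass the filter on low counts in the class test.

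Tnf separated B cells from the rest. Macrophages had 179, 162 and 149 CPM, neutrophils 160.2, 95.9 and 116 CPM, and T cells 42.4, 179 and 129 CPM. B cells had 0, 6.18 and 7.97 CPM, below every value of the other 3 classes, which overlapped among themselves. Macrophages exceeded B cells by 5.57 on the log2 scale and neutrophils by 5.55, while B cells lay 4.49 below T cells (adjusted p = 6.10e-05, edgeR's quasi-likelihood test). Macrophages and neutrophils differed by 0.02 (SE 0.24, adjusted p = 0.95). The higher level of macrophages than T cells (1.08, adjusted p = 0.0103) and of neutrophils than T cells (1.06, adjusted p = 0.0171) depended on the scaling, with 0.64 (adjusted p = 0.101) and 0.26 (adjusted p = 0.539) without TMM factors. Both calls also ended without mouse 1 (0.57 and 0.48), and the second with the T rule applied last (0.75, adjusted p = 0.0667). NK-like cells, with 7 to 11 cells per mouse, had 88.5, 139 and 364 CPM.

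Ptgs2 was measured at 93.5, 93.6 and 121 CPM in macrophages and at 62.2, 56.9 and 70.0 CPM in neutrophils. Monocyte-like cells had 261, 124 and 87.5 CPM and dendritic-cell-like cells 48.3, 9.07 and 45.6 CPM. B and NK-like cells had none, and T cells had 0, 0 and 4.77 CPM. Each macrophage value was above each neutrophil value in CPM, but the difference after TMM scaling was 0.30 (SE 0.20, adjusted p = 0.197), and it was 0.68 (adjusted p = 0.00634) without TMM factors and 1.30 (adjusted p = 8.07e-06) when the T rule was applied last. Macrophages were at least 28.9-fold and neutrophils at least 17.3-fold above B cells, and the log2 folds over T cells were 5.86 and 5.56.

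Il10, the restraining cytokine of the group, had 117, 80.5 and 106 CPM in macrophages. It was not counted in neutrophils (0 of 272 cells, which allows a share of up to 1.10%), B cells (0 of 161, up to 1.86%) or T cells (0 of 76, up to 3.95%). These limits are for cells with a UMI and not for cells that express the gene, and in thinned macrophages Il10 was detected in 9.20% of cells. Thinned dendritic-cell-like cells had it in 1.28% and monocyte-like cells in 1.01% on average. Macrophages were at least 53.7-fold above neutrophils, at least 26.4-fold above B cells and at least 14.5-fold above T cells. The bounds, taken without TMM factors, differ because the classes differ in total UMIs. They apply to cells of a single rule. When cells of more than 1 rule were kept and given to B and then T cells first, the T class took in the 286 cells that met the neutrophil rule and 36 that met the macrophage rule. Up to 4 cells that met the macrophage and the neutrophil rule went to the neutrophils. The log2 folds of macrophages were then 2.83 over neutrophils and 1.67 over T cells for Il10, and over T cells 2.38 for Il1b, 2.46 for Il1a and 1.99 for Ptgs2, all still called, while Il1rn was called lower in macrophages than in T cells (-1.88). Neutrophils then exceeded T cells by 1.84 for Il1b, 1.71 for Ptgs2 and 1.52 for Il1rn, all called.

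Il6 was close to the limit of detection in macrophages, with 1.82, 3.42 and 1.87 CPM from 30 UMIs in 1442 cells. Neutrophils had 1 UMI, and B, T and NK-like cells had none. Monocyte-like cells had 18.3, 8.57 and 11.5 CPM from 21 UMIs, above every macrophage value, without a test. Stromal and glial marker genes, such as Dcn and Col1a1, took 0.00157%, 0.00386% and 0.0990% of UMIs in the monocyte-like cells of mouse 1, 2 and 3. Whether such RNA had a part in the mouse 3 values of this group was not tested. Tslp was low throughout, at 14.6, 15.5 and 13.7 CPM in macrophages and 4.78, 3.55 and 4.38 CPM in neutrophils. Its B cell values of 0, 6.18 and 7.97 CPM and T cell values of 12.1, 16.3 and 0 CPM came from 2 cells each, and the T cells overlapped with the macrophages.

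**Figure D1:**
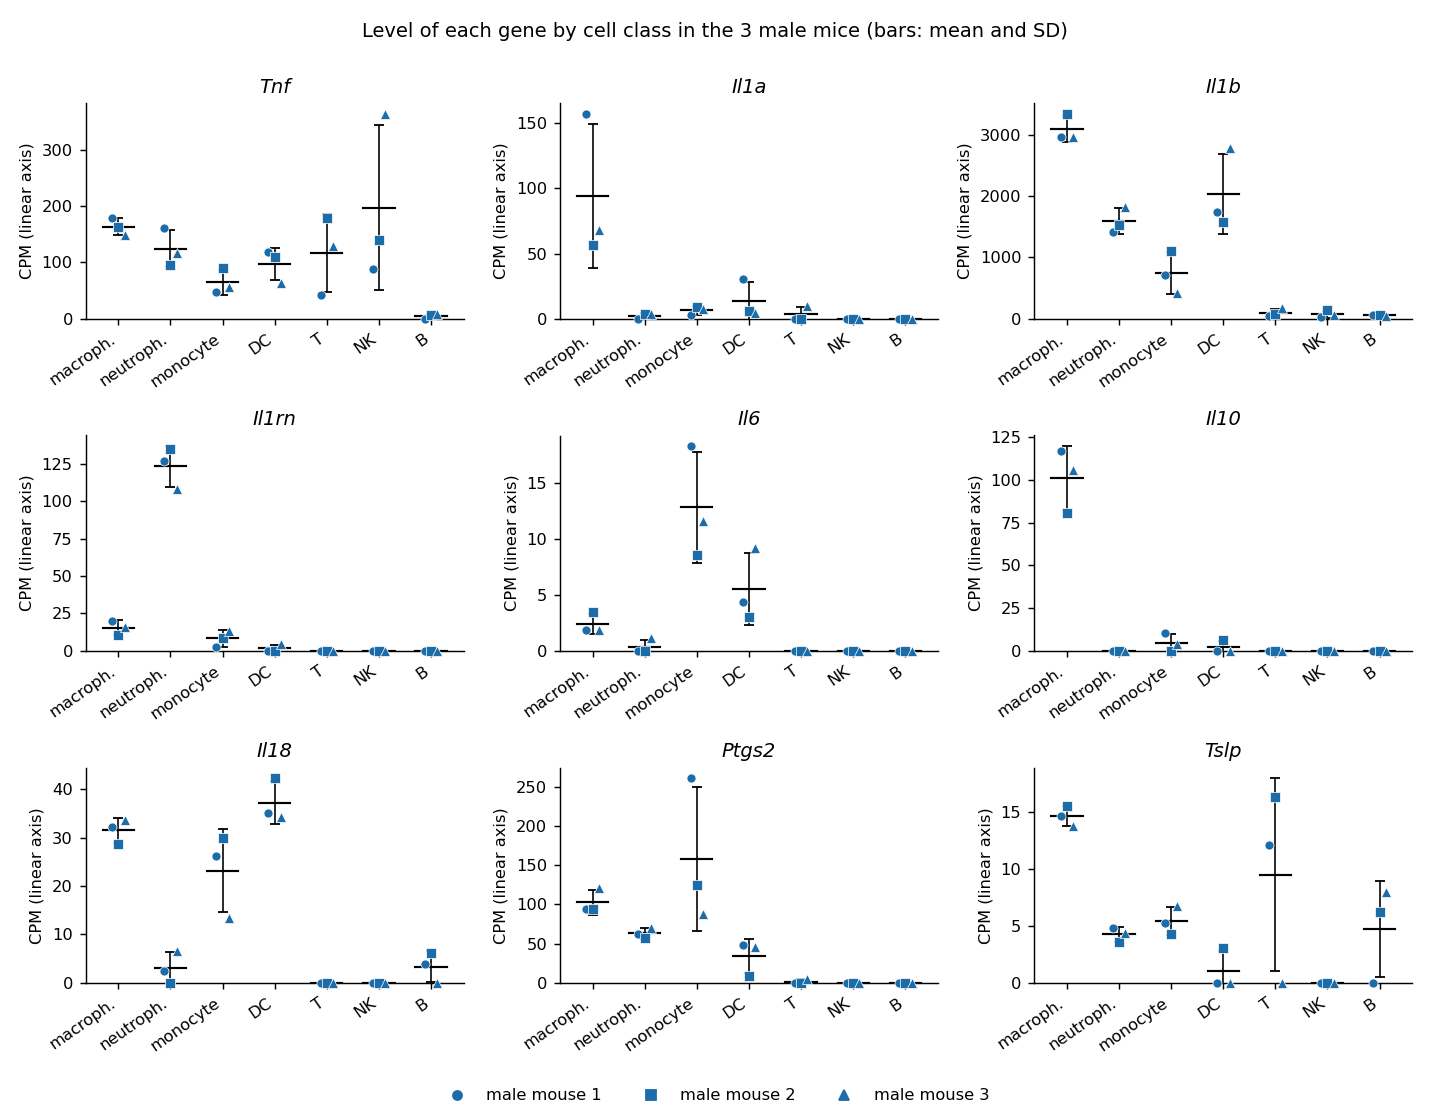
Level of each of the 9 genes (vertical axes, CPM, linear from 0) in the cell classes (horizontal axes) of the 3 male mice, with 1 point per mouse and bars for the mean and SD. Among the 4 tested classes, Il1a and Il10 stand in macrophages, Il1rn is highest in neutrophils (108 to 135 CPM) and Tnf is low in B cells alone.

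The counts of partner genes called between macrophages and neutrophils stand beside the 60.1% of all genes, and nothing particular to a list is read from them. Of the IL-1 and inflammasome list, 5 of 12 genes tested were higher in macrophages and 3 in neutrophils. Il1r2, a decoy receptor for IL-1, was 7.22 lower on the log2 scale in macrophages than in neutrophils, and Il18rap, a subunit of the IL-18 receptor, was 5.62 lower, while Aim2, a DNA sensor, was 2.43 higher. In the prostaglandin and leukotriene list 7 of 10 were higher in macrophages and 3 lower, with a median of 2.11 against 0.13 over all genes. Among them were Ltc4s, the synthase of leukotriene C, which had no UMI in neutrophils and 292 to 319.5 CPM in macrophages, Hpgds, which makes prostaglandin D, at 7.08 and Hpgd, which breaks prostaglandins down, at 6.02. Of the TNF list, 1 of 8 was higher (Tnfaip3, a brake on NF-kB, at 1.14) and 2 lower, Ltb, the gene of lymphotoxin beta, at -5.71 and Tnfrsf1a, a TNF receptor, at -1.16. Of genes for receptors and signalling of IL-6 and IL-10, 4 of 9 were higher, led by Socs3 (3.07), Il10ra (2.5) and Il10rb (1.5), and 1 was lower. The list of transcript decay and NF-kB control also holds NF-kB subunits, and 6 of its 13 genes were higher in macrophages and 0 lower. Among them were the decay factors Zfp36l1 at 6.45 and Zfp36 at 1.15 and the NF-kB inhibitor Nfkbib at 1.12. The medians of these lists apart from the prostaglandin list were between 0.03 and 0.55.

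Within macrophages, the groups with Fcrls UMIs and no Ccr2 UMI (Fcrls-only, 655 cells) and with Ccr2 UMIs and no Fcrls UMI (Ccr2-only, 154 cells) split these genes in opposite directions. Fcrls is a gene of resident macrophages and microglia, and Ccr2 is the chemokine receptor of recruited monocytes. Il10 was higher in Fcrls-only cells, and Tnf, Il1a and Il1b were higher in Ccr2-only cells. Of the 8 genes tested, 1 was called higher and 3 lower in Fcrls-only cells, beside 9.43% of all 5877 genes tested (4.15% higher and 5.27% lower, which is 244 and 310 genes, or 319 and 210 without TMM factors). Presence of Fcrls or Ccr2 depends on the depth of a cell, and the groups had similar median depths (8466 and 8024.5 UMIs). Marker genes moved with the split too. The 5 macrophage check genes together took 0.384% to 0.421% of UMIs per mouse in Fcrls-only and 0.224% to 0.252% in Ccr2-only cells, and the monocyte check genes, Ccr2 included, 0.0403% to 0.0471% and 0.0751% to 0.0802%. Their part in the differences below was not tested.

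Il10 had 155, 111 and 132 CPM in Fcrls-only cells and 5.29, 5.71 and 20.7 CPM in Ccr2-only cells. The groups lay far apart in each mouse, and cells with both UMIs were between them at 112, 61.8 and 99.6 CPM. The log2 fold was 3.12 (SE 0.31, adjusted p = 2.44e-06, edgeR's quasi-likelihood test), with 18 UMIs behind the lower group. Il10 passed the filter on low counts with the help of the Fcrls-only sums, where it was high. In cells thinned to 2000 UMIs and grouped at full depth, Il10 was found in 12.2% ± 1.33 of Fcrls-only and 2.70% ± 2.36 of Ccr2-only cells (18.3% ± 4.39 and 5.22% ± 1.74 unthinned).

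Tnf ran the other way, at 134, 135 and 122 CPM in Fcrls-only cells and 269.7, 351 and 259 CPM in Ccr2-only cells. No value of one group reached the other, and cells with both UMIs had 190.4, 151 and 149 CPM, between them in all mice. The log2 fold was -1.27 (SE 0.16, adjusted p = 3.24e-05). The thinned share of cells with Tnf was 22.9% ± 4.10 against 44.2% ± 2.6 (51.6% ± 4.14 and 66.1% ± 3.69 unthinned), and 0.98% in B cells. When Fcrls and Ccr2 were themselves read from thinned cells, the folds shrank to -0.59 for Tnf (adjusted p = 0.174) and to 0.47 for Il10 (adjusted p = 0.449), and neither was called.

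The IL-1 genes showed smaller or less even differences. Il1b had 2796, 3236 and 2844 CPM in Fcrls-only and 3850.1, 3495 and 3662 CPM in Ccr2-only cells, without overlap. Its log2 fold was -0.41 (SE 0.11, adjusted p = 0.0189). Leaving out any 1 of the 3 mice ended the call (-0.52 to -0.35), and grouping in thinned cells gave 0.19, the opposite direction. Il1a had 83.3, 41.8 and 78.6 CPM against 449.5, 91.4 and 95.4 CPM, so that each Ccr2-only value was higher, but by far the most in mouse 1. The log2 fold of -1.50 (SE 0.43, adjusted p = 0.0327) fell to -0.73 (adjusted p = 0.178) without mouse 1. It missed the threshold when mouse 2 was left out (adjusted p = 0.122) and with DESeq2 (adjusted p = 0.247). Grouping in thinned cells left an Il1a fold of -0.25 (adjusted p = 0.8, edgeR's quasi-likelihood test). The 1% macrophage rule also ended the calls of Il1a (adjusted p = 0.0568) and Il1b (-0.35, adjusted p = 0.12, the same test for both). Without TMM factors the calls of Il1a (adjusted p = 0.0580) and Il1b (adjusted p = 0.0518) ended as well.

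The other members were not called here. Ptgs2 had 87.7, 67.7 and 134 CPM in Fcrls-only and 37.0, 77.1 and 56.7 CPM in Ccr2-only cells, overlapping groups with a log2 fold of 0.63 (SE 0.27, adjusted p = 0.179). Il1rn (-0.89, adjusted p = 0.333) and Il18 (-0.53, adjusted p = 0.266) also missed the threshold, and Il6, with 14 and 4 UMIs, was too low for the test. Tslp was not called either. It had 30.7, 24.3 and 21.9 CPM in Fcrls-only cells, 2.91, 7.64 and 3.75 CPM in cells with both UMIs and 0, 5.71 and 20.7 CPM in Ccr2-only cells. Every Fcrls-only value was above every value of these 2 groups, if only just in mouse 3, and the contrast with Ccr2-only cells was 0.79 (SE 0.44, adjusted p = 0.332). Mouse 3 lowered that contrast, which was 2.69 without that mouse (adjusted p = 0.0422, edgeR's quasi-likelihood test). The contrast was 4.52 (adjusted p = 5.72e-04, the same test) when at least 2 UMIs of Fcrls or Ccr2 were asked for. The Ccr2-only group held 17 Tslp UMIs in few cells, most of these UMIs in mouse 3. A Tslp UMI was present in 14.0% of Fcrls-only, 2.75% of double-positive and 1.51% of Ccr2-only cells, and in 1.25% of B cells.

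**Figure D2:**
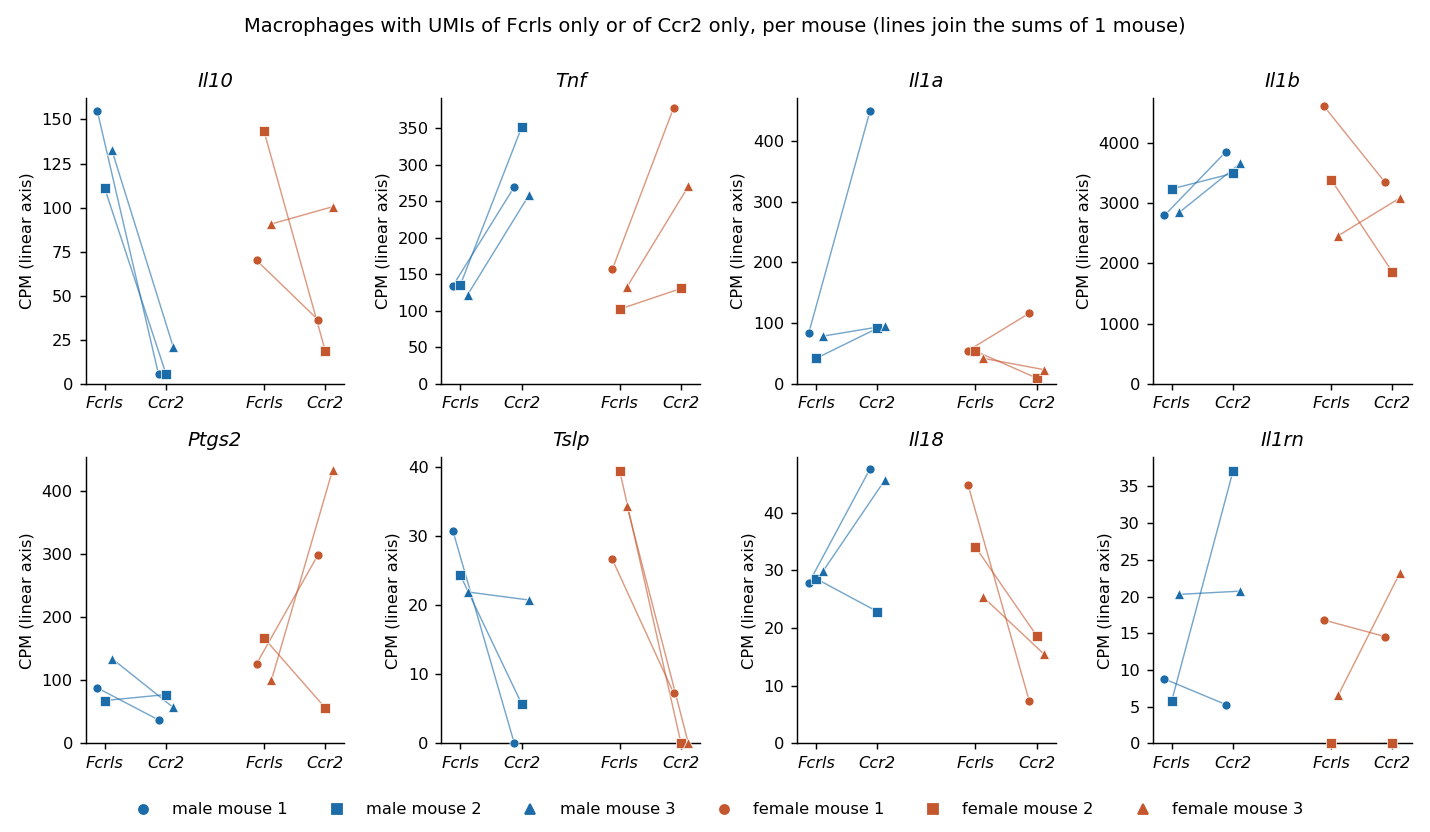
Level of 8 of the genes, without Il6 (vertical axes, CPM, linear from 0), in Fcrls-only and Ccr2-only macrophages of male and female mice, with 1 point per mouse and group and a line joining the points of each mouse. In males Il10 falls and Tnf rises from Fcrls-only to Ccr2-only cells in 3 of 3 mice, and Tslp in females is at or near 0 in Ccr2-only cells.

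Immediate early genes moved with the same split. The 4 genes that serve as signs of digestion (Fos, Jun, Atf3 and Rhob) took 0.610%, 1.12% and 0.644% of UMIs in Fcrls-only cells and 0.353%, 0.331% and 0.354% in Ccr2-only cells, and 5 of 10 listed immediate early genes were called higher in Fcrls-only cells and 0 lower. Within the macrophages of the lowest tertile of these UMIs, the Il10 fold was 3.16 (adjusted p = 2.10e-05) and the Tnf fold -1.52 (adjusted p = 0.00162), about as large as in all macrophages. Il1a (-1.32, adjusted p = 0.205) and Il1b (-0.55, adjusted p = 0.131) were not called there by edgeR's quasi-likelihood test. Their folds were also near those in all macrophages (-1.50 and -0.41), so the loss of the calls does not set them apart from Il10 and Tnf. Among pathway partners, Ltc4s (2.19), Hpgds (1.02) and Hpgd (0.57), which make or degrade lipid mediators, were higher in Fcrls-only cells, 3 of 11 tested with 1 lower. Il18bp, a soluble trap for IL-18, was 1.78 higher and Myd88, the adaptor of the IL-1 receptor, 0.87 lower (log2 -0.87), 1 of 11 tested in each direction. The TNF list had 0 of 7 genes called by edgeR's quasi-likelihood test, 0 at an unadjusted p under 0.05 and 0 by DESeq2. The list medians ran from -0.28 for the receptors to 0.75 for the immediate early genes, against 0.02 over all genes tested. The receptor list had 0 higher and 1 of 8 lower (Socs3, -0.62). The list of transcript decay and NF-kB control had 1 of 13 higher and 3 lower (Nfkb2 -0.84, Nfkbib -0.75 and Zc3h12a -0.71). DESeq2 called 0 genes of the IL-1 list, 3 of the prostaglandin list, 1 of the receptor list, 2 of the decay list and 4 immediate early genes.

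In the 3 female mice, with 286 Fcrls-only and 54 Ccr2-only cells, Tnf was again lower in Fcrls-only cells and Il10 was not called. Tnf had 157, 102 and 133 CPM in Fcrls-only cells of female mice 1, 2 and 3 and 378, 131 and 271 CPM in Ccr2-only cells. The Ccr2-only value was higher within each mouse, although the groups overlapped across mice. The log2 fold was -1.06 (SE 0.28, adjusted p = 0.0227, edgeR's quasi-likelihood test), 1 of 5 members tested beside 7.38% of 3836 genes. The call ended without mouse 1 or mouse 3, with DESeq2 (adjusted p = 0.0714), in the lowest immediate early tertile (-0.99) and, with the smallest fold, when the groups were set in thinned cells (-0.52, adjusted p = 0.405).

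Il10 in females had 70.0, 143 and 90.7 CPM in Fcrls-only and 36.4, 18.6 and 100.5 CPM in Ccr2-only cells. Mouse 3 was higher in Ccr2-only cells, unlike the other two, and the log2 fold was 0.86 (SE 0.43, adjusted p = 0.307). With at least 2 UMIs of Fcrls or Ccr2 it was called, at 1.5 (adjusted p = 0.0322). Ptgs2 had 126, 167 and 99.5 CPM against 298, 55.9 and 433 CPM. Its direction differed between mice, with a fold of -1.11 (adjusted p = 0.065) that was called with the mouse as block (-1.08, adjusted p = 7.19e-05), without the filter (-0.96), at 2 UMIs (-1.40) and without mouse 2 (-1.74), and was 0.0417 (not called) in thinned cells. Il1a (-0.14) and Il1b (0.30, adjusted p = 0.538) were not called. Tslp, too low for the test in females, had 26.6, 39.4 and 34.3 CPM in Fcrls-only cells, 1.38, 7.33 and 5.54 CPM in cells with both UMIs and a single UMI in Ccr2-only cells (7.27, 0 and 0 CPM), so Fcrls-only values were again the highest in every mouse. Il18 was also too low for the test, at 44.8, 34.1 and 25.4 CPM in Fcrls-only and 7.27, 18.6 and 15.5 CPM in Ccr2-only cells, as were Il1rn and Il6. Partner genes called in females were Ltc4s (2.79), Hpgds (1.08) and Hpgd (0.56) among 9 of the prostaglandin list, Tnfaip3 (0.75) among 5 of the TNF list, Il10rb (0.89) among 7 receptor genes and Zfp36l1 (1.19) and Nfkbiz (0.52) among 13 decay and NF-kB genes, all higher in Fcrls-only cells. DESeq2 called 1 gene of the prostaglandin list, 1 of the TNF list, 0 of the receptor list and 2 of the decay list. Of the IL-1 list 0 of 10 were called by edgeR's quasi-likelihood test and by DESeq2, with 1 at an unadjusted p under 0.05. Of the immediate early list 7 of 10 were higher, led by Jun (1.90) and Rhob (1.81), and the 4 digestion genes took 0.834% of UMIs in Fcrls-only and 0.304% in Ccr2-only cells on average.

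Whether the split itself differed between the sexes was tested with an interaction term. Of 6157 genes tested, 0 were called by edgeR's quasi-likelihood test (0.0%), 262 had an unadjusted p under 0.05, and DESeq2 called 1. Among members, Il10 (-2.24, unadjusted p = 0.00233, female minus male contrast), Ptgs2 (-1.73, unadjusted p = 0.00233), Il18 (1.86, unadjusted p = 0.00681), Il1b (0.72, unadjusted p = 0.0141) and Tslp (2.75, unadjusted p = 0.0371) had the lowest values, each with an adjusted p of 0.9999 in edgeR, as had Il1a (1.37), Tnf (0.23) and Il1rn (0.21). Without the filter on low counts the difference was called for Il10 (-2.14, adjusted p = 0.0320), Ptgs2 (-1.63, adjusted p = 2.93e-04) and Il1b (0.80, adjusted p = 0.0248), and for Ptgs2 also without female mouse 2 (-2.32, adjusted p = 0.0150). For whole macrophages, 7 of 8070 genes were called between the sexes (0.0867%), and none was a member by edgeR's quasi-likelihood test or by DESeq2. Il10 was the 1 member with an unadjusted p under 0.05 (0.0458), at 80.7, 88.6 and 66.7 CPM in females against 117, 80.5 and 106 CPM in males, a log2 fold of -0.34 (adjusted p = 0.862). The folds of the other 7 members tested ran from -0.53 for Il1a, which was called without the filter (-0.56, adjusted p = 0.0178), to 0.44 for Tslp.

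To describe how the members moved with signs of ex vivo activation, macrophages of each male mouse were divided into tertiles by the share of UMIs in Fos, Jun, Atf3 and Rhob. Il1a, Il1b and Ptgs2 were lower in the highest tertile than in the lowest, Tslp was higher, and Tnf and Il10 were not called. A tertile is a range of cells and not a cell type, and its own 4 genes are no result. Of the 8 members tested 4 were called, 1 higher and 3 lower, beside 5.48% of 7425 genes (2.57% higher and 2.91% lower, which is 191 and 216 genes, or 240 and 118 without TMM factors), and with the mouse as block 893 genes were called in place of 407. The highest tertile had a lower median depth (7745 UMIs) than the lowest (8948).

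Il1a had 299, 105 and 95.2 CPM in the lowest tertile and 41.5, 22.0 and 30.7 CPM in the highest. The tertiles did not overlap, and the log2 fold was -2.43 (SE 0.37, adjusted p = 5.22e-04, edgeR's quasi-likelihood test). Il1b had 4587, 4068 and 3349 CPM against 1640.0, 2503 and 2145 CPM, again without overlap, with a fold of -1.02 (SE 0.15, adjusted p = 4.94e-04). The middle tertile had 2529, 3343 and 3279 CPM, between the others in mice 1, 2 and 3. Ptgs2 had 86.3, 119.6 and 119 CPM against 78.9, 40.5 and 72.2 CPM. It was lower in each mouse, least so in mouse 1, and its fold of -0.91 (SE 0.19, adjusted p = 0.00912) was not called without mouse 2.

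Tslp rose from 3.6, 6.06 and 7.21 CPM to 16.6, 20.2 and 18.9 CPM, on 29 and 73 UMIs. Its log2 fold was 1.51 (SE 0.32, adjusted p = 0.00820, edgeR's quasi-likelihood test), and DESeq2 gave 1.55 without an adjusted p. Tslp passed the filter on low counts only through the highest tertile, where it was high, so its place among the members tested was set by that tertile. The tertiles did not overlap, though the call ended without mouse 2 or mouse 3, each with a fold near the original (1.45 and 1.72). Tnf had 155, 158 and 129 CPM in the lowest and 206, 178 and 185 CPM in the highest tertile, higher in 3 of 3 mice, with a fold of 0.29 (SE 0.15, adjusted p = 0.299). When 10 immediate early genes defined the tertiles, the Tnf fold was 0.62 (adjusted p = 0.0474) and that of Ptgs2 -0.69 (adjusted p = 0.0797). Il1rn had a fold of -1.19 (adjusted p = 0.127), or -1.18 with the mouse as block (adjusted p = 0.0376), and was also called without the filter (-1.22, adjusted p = 0.00823) and without mouse 3 (-3.58, adjusted p = 0.00296), while it was -0.55 without mouse 2. Il10 had 182, 68.2 and 80.4 CPM in the lowest and 78.9, 71.3 and 125 CPM in the highest tertile, overlapping and with no common direction (-0.15, adjusted p = 0.837). Il18 overlapped as well (-0.04, adjusted p = 0.965), and Il6 was too low for the test.

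Because Fcrls-only cells held more immediate early UMIs, the tertiles were repeated within Fcrls-only macrophages alone. Il1a had 143, 77.5 and 126 CPM in the lowest and 38.4, 24.8 and 24.3 CPM in the highest tertile, a fold of -2.04 that was called. Il1b (-0.79, adjusted p = 0.188), Ptgs2 (-1.07, adjusted p = 0.144) and Tslp (0.68, adjusted p = 0.425) kept their sign but were not called. In the female mice, whose tertiles were not tested, Il1a had 184, 27.0 and 78.5 CPM in the lowest and 35.1, 41.3 and 13.6 CPM in the highest tertile. Il1b there had 5720.0, 2224 and 2784 CPM against 2357, 2570.1 and 2503 CPM. In both genes female mouse 2 went against the other two mice.

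**Figure D3:**
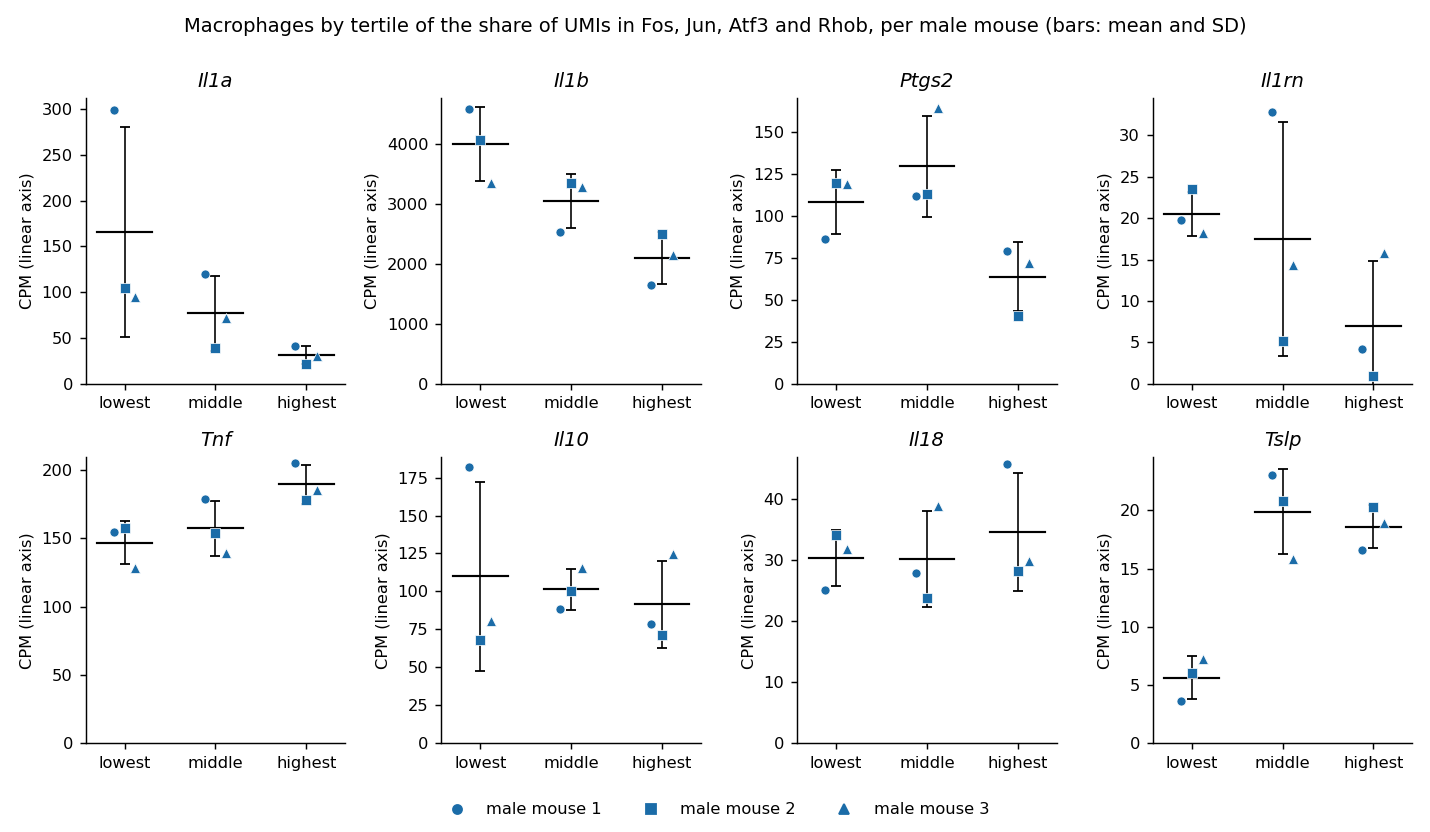
Level of 8 of the genes, without Il6 (vertical axes, CPM, linear from 0), in macrophages of the lowest, middle and highest tertile of Fos, Jun, Atf3 and Rhob UMIs, with 1 point per male mouse and bars for the mean and SD. Il1a and Il1b fall and Tslp rises from the lowest to the highest tertile in 3 of 3 mice.

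The partner genes gave context to this axis. All 6 remaining immediate early genes tested were higher in the highest tertile, led by Egr1 (2.75), Ier2 (1.43) and Dusp1 (1.41). Of 13 genes of the transcript decay and NF-kB control list, 3 were higher, namely the decay factors Zfp36l2 (1.47), Zfp36 (1.32) and Zfp36l1 (1.01), and 2 were lower. In the IL-1 list 0 of 13 were higher and 1 lower (Nlrp3, the inflammasome sensor, -0.70). In the TNF list Tnfaip3 was 0.50 higher and Birc3 0.53 lower (log2 -0.53), 1 of 8 in each direction, and in the receptor list Il10rb (0.57) was higher and Socs3 (-0.94) lower, 1 of 12 in each direction. The prostaglandin list had 0 of 12 called by edgeR's quasi-likelihood test and by DESeq2, with 4 at an unadjusted p under 0.05. Beside a median of 0.01 over all genes, the list medians were 1.29 for the immediate early genes and between -0.13 and 0.31 for the others.

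Across classes, these 4 genes took 0.624% ± 0.192 of UMIs in macrophages, 0.0736% ± 0.0184 in neutrophils, 0.0646% ± 0.0187 in B cells and 0.0871% ± 0.0390 in T cells (SD, n = 3 mice). Macrophages thus stood far above the other tested classes by this measure, and 8 of 10 listed immediate early genes were called higher in macrophages than in neutrophils. Monocyte-like cells, at 0.269% ± 0.0691, and dendritic-cell-like cells, at 0.185% ± 0.0580, lay between macrophages and those classes on average. The part of the digestion in the levels of the 9 genes was not tested, since no undigested cells were measured.

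In neutrophils, Il1b, Il1rn, Ptgs2 and Tnf were lower in cells rich in secondary granule transcripts. Camp, Ltf and Ngp encode proteins of secondary granules, which are made before a neutrophil is mature, and neutrophils of each mouse were divided into tertiles by the share of these UMIs. Il1b, Il1rn, Ptgs2 and Tnf were all called, beside 41.4% of 1914 genes tested (18.0% higher and 23.4% lower in the granule-rich tertile, which is 345 and 447 genes, or 203 and 631 without TMM factors), so a fall was common on this axis. Il1a, Il6, Il10, Il18 and Tslp were too low for the test in neutrophils. Of the members tested, only Il1b had enough UMIs in the granule-rich sums to pass the filter on low counts from that tertile. Ptgs2, Il1rn and Tnf passed it with the help of the granule-poor sums, where they were high. That all members tested were lower is thus partly set by the filter. The granule-rich tertile was also deeper, with a median of 6806 UMIs against 3123.

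Il1b had 6201, 2649 and 4099.7 CPM in the granule-poor tertile and 263, 387 and 204 CPM in the granule-rich one. Even the lowest granule-poor value was several times the highest granule-rich value, and the log2 fold was -3.59 (SE 0.38, adjusted p = 6.41e-05, edgeR's quasi-likelihood test). The middle tertile had 1281, 4299 and 4082 CPM. Ptgs2 had 357, 158 and 189.6 CPM against 0, 11.4 and 15 CPM, without overlap, a fold of -4.04 (SE 0.54, adjusted p = 1.93e-04).

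Il1rn had 310.0, 246 and 184 CPM in the granule-poor, 262, 391 and 221 CPM in the middle and 27.5, 28.4 and 41.2 CPM in the granule-rich tertile. Only the last stood apart, with a fold of -2.37 against the granule-poor tertile (SE 0.33, adjusted p = 2.44e-04). Tnf had 558, 158 and 205 CPM against 47.1, 68.2 and 33.7 CPM, without overlap, and a fold of -2.31 (SE 0.48, adjusted p = 0.00253) that missed the threshold when mouse 3 was left out (adjusted p = 0.0502). With the T rule applied last the folds were -5.74 for Il1b, -5.56 for Ptgs2, -3.03 for Il1rn and -2.30 for Tnf. The cells that met both the neutrophil and the T rule resembled the granule-rich tertile in these genes, with Il1b at 228, 183 and 204 CPM, Ptgs2 at 6.36, 5.31 and 7.41 CPM and Il1rn at 44.5, 55.7 and 51.3 CPM.

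**Figure D4:**
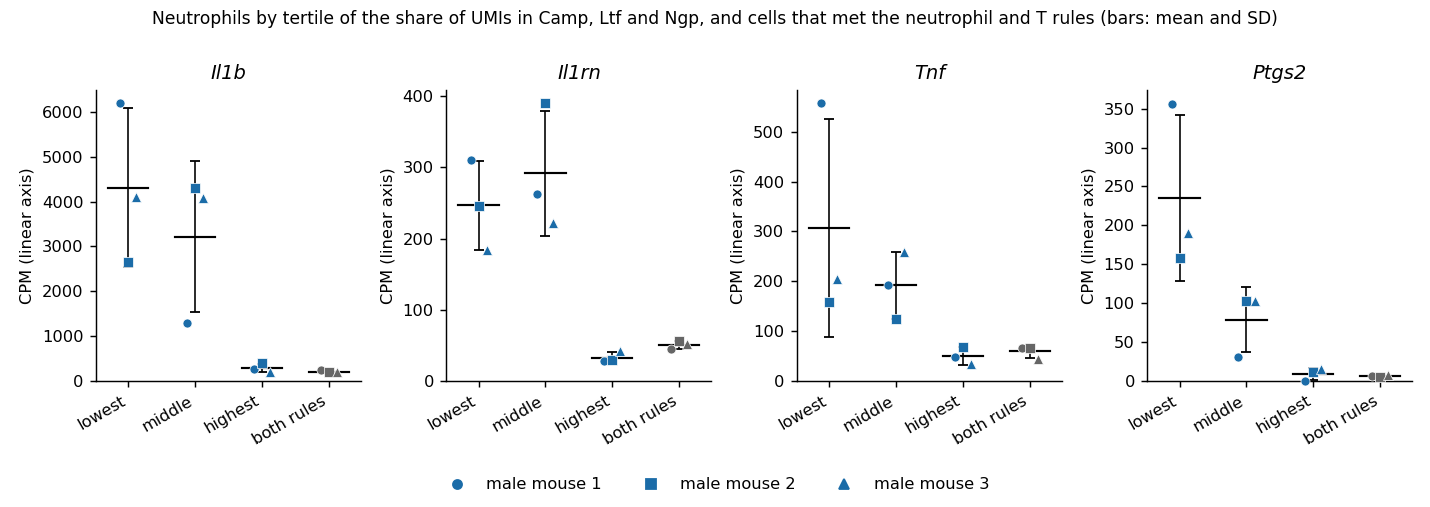
Level of Tnf, Il1b, Il1rn and Ptgs2 (vertical axes, CPM, linear from 0) in neutrophils of the lowest, middle and highest tertile of Camp, Ltf and Ngp UMIs and in cells that met the neutrophil and the T rule, with 1 point per male mouse and bars for the mean and SD. In each gene the highest tertile lies below the lowest tertile in 3 of 3 mice.

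Partner genes fell with them. Of the TNF list 5 of 5 tested were lower in the granule-rich tertile, among them Tnfaip3 (-3.23), Ltb (-2.23) and Birc3 (-2.03), and of the IL-1 list 3 of 3 (Nlrp3 -2.96, Il1r2 -2.24 and Myd88 -1.57). Of the transcript decay and NF-kB list 5 of 7 were lower and 0 higher, including Nfkbiz (-2.64), Zfp36 (-2.62) and Nfkbia (-2.59). Of the immediate early list 8 of 10 were lower, with Fosb at -3.01 and Dusp1 at -2.92, and of the receptor list 2 of 5 (Il6ra -2.63 and Stat3 -0.99). In the prostaglandin list 1 of 4 was called, Lta4h, which makes leukotriene B, at 2.95. The list medians were -2.3 for immediate early genes, -2.24 for the IL-1 list, -2.03 for the TNF list and -1.77 for the decay list, against 0.00 over all genes. Fos, Jun, Atf3 and Rhob together took 0.129% ± 0.0380 of UMIs in the granule-poor and 0.0414% ± 0.00411 in the granule-rich tertile (SD, n = 3 mice), and their part in these differences was not tested.

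In single macrophages thinned to 2000 UMIs, Il1a and Ptgs2 were found somewhat more often in cells that also held Tnf. Il1a was present in 12.1% ± 2.08 of cells with a Tnf UMI and 7.66% ± 1.61 of cells without one (SD, n = 3 mice), higher in 3 of 3 mice. Ptgs2 was present in 18.2% ± 5.22 of cells with Il1a and 8.68% ± 0.979 of those without, again in 3 of 3 mice, and in 11.5% ± 1.05 of cells with Tnf and 8.85% ± 1.26 of those without. Il10 was present in 8.74% ± 1.67 of cells with Tnf and 9.25% ± 1.41 of cells without. These shares were not tested.

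Likeness to other genes was described by Pearson's r of log2(CPM + 1) over 24 sums of 8 groups of cells in 3 mice, which share mice and lane. The genes most like Il1b were Plek (0.98), Dusp1 (0.95) and Ccrl2 (0.95), and among the 9 genes the closest pair was Il1b and Ptgs2 (0.88). Il1rn was most like Csf3r, the receptor of granulocyte colony-stimulating factor (0.92), and Il1a was most like Gm48065 (0.95) and Csf1r (0.93). Ptgs2 was most like Lyz2 (0.97), Sirpa (0.97) and Cd300a (0.96), Tnf most like Lcp2 (0.90), Evi2a (0.88) and Klf6 (0.87), and Il10 was like Chp2 (0.93) and Afap1l1 (0.92). Il18 went with Rnd3, Tbc1d9 and Tubb6 (0.93 each), and Tslp reached only 0.77 with Plod1.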

How the data were processed

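The authors deposited raw UMI counts from Cell Ranger 3.1.0 (build mm10 per the labels): a matrix of 4395 barcodes with hashtag counts, and the cells they had filtered in Seurat and demultiplexed by hashtag. HTODemux in Seurat 5.3.0 (R 4.3.3; quantile 0.99; over 200 and under 5000 genes, under 5% mitochondrial UMIs) applied to the larger matrix gave 3741 cells, of which the 2668 with a male hashtag were the deposited cells. Of the entries shared by both matrices, 30 entries of 4 symbols differed. UMIs were summed per mouse and group of cells (Python 3.11.15, scanpy 1.11.5) and tested with edgeR 4.0.16 (quasi-likelihood test, TMM, filterByExpr, Benjamini-Hochberg over all genes tested, call at an adjusted p under 0.05), without the genes that define the groups. DESeq2 1.42.0 was an alternative, and the code was tested on simulated data. The limit given for a count of 0 is 3 counts of the total and covers counting error only. Scrublet marked 15 cells (0.562%), which were kept.

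The 9 genes and all lists were chosen with earlier results of these data known. By the rule for named genes, all 9 are named in every comparison, and of each list of partner genes the counts called and up to 3 called genes with the largest change. In the comparisons of the sexes, some of the 9 are given only as part of a range. Sums compared within a fit come from the same animals, so they are paired by mouse, except where male macrophages are compared with female ones. Deviations of the sums of 1 mouse correlated at 0.0467, 0.0815 and 0.203 between Fcrls-only and Ccr2-only cells, at 0.0264, 0.0951 and 0.225 between immediate early tertiles and at -0.0624 to 0.0164 between granule tertiles, and at 0.00157 to 0.0849 in females. The mouse was a block in an alternative, but not for the comparison of the sexes or the interaction with sex. Other alternatives were DESeq2 size factors, no filter, leaving out each mouse, stricter rules, thinned cells, and, chosen after seeing the data, sums without TMM factors, the T rule applied last, the lowest immediate early tertile of macrophages in the class comparison, and immediate early tertiles of Fcrls-only macrophages. Hashtags taken as mice are the only replicates. Some genes alike in pattern are not reported here.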

Additional observations from a re-analysis of the deposited data

Results flagged for a closer look

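Il1b in macrophages of female mouse 1 stood apart from the other mice. Its 4304 CPM compared with 2870.1 and 2929.9 CPM in female mice 2 and 3 and with 2964, 3344 and 2969 CPM in the male mice. The gap to the next mouse was 0.670 of the whole range, above Dixon's 95% critical value for 6 mice. It was the only 1 of 13 combinations of gene and class so tested that passed, and chance passes about 1 in 20.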

How the results depend on the processing

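Of the named values of the 9 genes under the alternatives, 644 kept direction and side of the threshold, 40 lost the call, 24 gained one and 14 changed sign. Without a filter on low counts, 5379 genes were called between macrophages and neutrophils, 4798 between macrophages and B cells, 102 between the sexes and 20 for the interaction with sex, where DESeq2 called 1. Thinning left 192 calls in the Fcrls and Ccr2 contrast (118 in females), and the lowest immediate early tertile left 123 (41 in females). Giving cells of more than 1 rule to B and T cells first changed the calls to 4093 for macrophages against T cells, 535 for neutrophils against T cells and 3356 for B against T cells. With 10 immediate early genes 220 were called, in Fcrls-only cells alone 66, and with the T rule last 1579 along the granule axis. Leaving out 1 mouse gave 218 to 353 calls for Fcrls against Ccr2 (98 to 155 in females), 563 to 1019 for B against T cells, 115 to 313 along the immediate early axis, 350 to 922 along the granule axis, 5 to 70 between the sexes (70 without male mouse 2) and 0 to 2 for the interaction. The causes were not tested.

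The mouse as replicate block called 893 genes along the immediate early axis in place of 407, and beside Il1rn there and Ptgs2 in females, given above, it changed no call of a member. For Fcrls against Ccr2 it called 677 genes in place of 554.

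Signs changed mostly where the value was near 0. Tnf between macrophages and neutrophils went to -0.035 with DESeq2 size factors, -0.0438 with the 1% macrophage rule, -0.0459 with B and T cells first, -0.0048 without Scrublet doublets, -0.13 in the lowest immediate early tertile and -0.14 to 0.0935 without 1 mouse (lowest without mouse 2). Il1b went to 0.19 between Fcrls-only and Ccr2-only cells when thinned and to -1.58 to 0.12 between B and T cells without 1 mouse (positive without mouse 3), a contrast called in 5 of 15 alternatives. Ptgs2 went to -0.16 in the lowest immediate early tertile and to 0.0417 in thinned female cells. Il1a in females went to 0.0128 without a filter, 0.32 at 2 UMIs and -0.62 to 1.44 without 1 mouse (highest without female mouse 1), and Il1rn between macrophages and T cells went to -1.88 with B and T cells first.

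Without TMM factors the median over all genes moved to 0.51 from 0.13 for macrophages minus neutrophils, and the genes called higher and lower were 2459 and 1124 in place of 1783 and 1527. The same change gave 1127 and 2680 for macrophages minus B cells (1677 and 1518 with TMM, median -0.58) and 943 and 1941 for macrophages minus T cells (1335 and 1134, median -0.46). For neutrophils it gave 822 and 3119 over B cells (1472 and 1567, median -1.07) and 714 and 2540 over T cells (1299 and 1258, median -0.87), and for B minus T cells 584 and 536 (462 and 635). Depth limits Il6, Tslp and Il18, whose few UMIs kept them out of several fits.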

Other observations

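Il6 was richest outside the tested classes. Cells with at least 4 UMIs of Mcpt8, Prss34, Cpa3 and Fcer1a, genes of basophils and mast cells, that met none of the 4 main rules numbered 8 in the male mice. They held 30 of the 99 Il6 UMIs, as many as 1442 macrophages, and stood at 682, 82.3 and 0 CPM in male mouse 1, 2 and 3. In the females 5 such cells held 23 Il6 UMIs. Among the male cells, 2 of mouse 1 held 17 and 10 Il6 UMIs, with 352 and 404 UMIs of Mcpt8 and 80 and 59 of Cpa3. These cells were picked after their Il6 values had been seen, and nothing was tested.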
